A study of Mus musculus with 8 samples.

Results

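Prnp and Prnd, the genes of the prion protein and of its relative doppel, were followed in mouse hearts by every non-control probe of the array whose accession maps to either gene. They are 2 of the 18217 genes named on the array, with 1 probe each, and both probes passed the filter on dim probes, which kept 26478 of 41174. The hearts came from 8 male C57BL/6J mice, 9 weeks old and kept on the CE-2 diet, with no genetic change named: 4 were satiated, and 4 had gone without food, but not without water, for 2 days. Total RNA of each heart was labelled with Cy3 and hybridised to 1 array per mouse. Both genes were chosen by their behaviour in the comparison of fasted with satiated hearts, so their values in it are given as a description, without a test.

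The prion protein is a glycoprotein held on the outer cell surface by a GPI anchor, a glycolipid tail; it binds copper, and its misfolded form is the infectious agent of prion diseases. It is made in most tissues, most abundantly in the nervous system, and its gene has the promoter of a broadly active gene. Doppel has the same overall fold and anchor, lacks the copper-binding repeats of the prion protein and is best known from the testis, where it serves sperm function. Prnd is the next protein-coding gene downstream of Prnp, on the same strand, and in some mouse lines with a disrupted Prnp gene its product appears in the brain through transcripts that run on from Prnp.

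The windows of 250 bases before the annotated start of each gene show what these neighbours have in common before their starts and where they differ. They are RefSeq sequences of build GRCm38.p6 on the plus strand of chromosome 2, chr2:131909678-131909927 for Prnp and chr2:131950611-131950860 for the first of the Prnd starts in the table. Capitals mark matches, on either strand, to a GC box, a CCAAT box or a TATA box; the first was searched as GGGCGG, the second by the letters of its name and the last as TATANA.
Prnp: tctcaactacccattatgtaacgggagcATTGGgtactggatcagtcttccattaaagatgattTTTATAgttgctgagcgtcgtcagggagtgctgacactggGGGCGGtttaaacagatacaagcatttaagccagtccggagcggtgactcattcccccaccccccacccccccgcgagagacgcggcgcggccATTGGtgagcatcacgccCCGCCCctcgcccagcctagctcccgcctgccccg
Prnd: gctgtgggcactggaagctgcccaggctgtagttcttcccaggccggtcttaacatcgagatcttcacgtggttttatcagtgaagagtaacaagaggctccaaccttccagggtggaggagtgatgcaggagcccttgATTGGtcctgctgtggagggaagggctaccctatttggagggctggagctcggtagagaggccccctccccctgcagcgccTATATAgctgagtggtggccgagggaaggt

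The windows had nearly the same GC content, 58.8% for Prnp and 58% for Prnd, against a median of 52.4%. The Prnp window held 17 CpG dinucleotides, 2 GC boxes and 2 CCAAT boxes, the latter on the minus strand. Positions are counted back from -1, the base before the start: the GC boxes lay at -146 to -141 and at -35 to -30. Its TATANA match, also on the minus strand, lay far from the start, at -186 to -181. The Prnd window held 6 CpG dinucleotides, the median over the 32851 promoters of the table, and no GC box. It had TATATA at -30 to -25, the distance from the start at which a TATA box usually lies, and 1 CCAAT box on the minus strand at -111 to -107. A CACGTG E-box, left in lower case, lay at -185 to -180. As many CpG as in Prnp were found in 23.5% of all promoters. A GC box occurred in 32.7% of them, a CCAAT box in 33.8%, a TATANA match in 22.6% and CACGTG in 6.02%. Neither window held a heat shock element (GAANNTTC, 6.69% of promoters) or a forkhead site (GTAAACA, 3.17%). The window of a second annotated Prnd start, further downstream, had 62.4% GC, no CCAAT or GC box, and the same TATATA at -206 to -201. These are matches of letters and were not tested as binding sites.

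Prnd was clearly measured in every satiated heart and lay at or near background in every fasted heart. Its processed signal, a linear spot brightness after background subtraction, was 479.6, 1657, 291.4 and 1236 in satiated replicates 1 to 4. In fasted replicates 1 to 4 it was 12.32, 14.14, 24.21 and 14.31. The lowest satiated heart was still far above the highest fasted heart, and the groups did not overlap. For comparison between arrays, values are given as log2 signal minus the 75th percentile of the array, and this scaled log2 value is used from here on.

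On that scale Prnd stood at -0.28, 1.18, -1.70 and 0.47 in satiated replicates 1 to 4, a mean of -0.08 ± 1.23 (SD, n = 4). The fasted hearts stood at -5.68, -5.39, -5.06 and -6.07, a mean of -5.55 ± 0.43 (SD, n = 4). Each fasted heart was also raised, where lower, to the dimmest value called well above background on its array. The lowest satiated heart then still lay 2.59 above the highest fasted one, or 6.01-fold. The difference, fasted minus satiated, was -5.47 ± 0.56 (SE) in the limma fit over all genes. The scanner software called the probe well above background in 4 of 4 satiated hearts but in 1 of 4 fasted hearts, replicate 2. The satiated hearts alone were enough to carry Prnd past the filter on dim probes. Among the 153 negative control spots of an array, 2 to 5 were at least as bright as Prnd in the fasted hearts and 0 in the satiated hearts. The size of the fall is therefore given as an approximate bound. Each fasted heart was set to its own value or, if higher, to the dimmest value still well above background on its array. Prnd was then 29.9-fold lower after fasting. This floor is the dimmest such spot and not a limit for the Prnd probe. Fasted replicate 1, at 12.32 against a floor of 11.9, was not called well above background. A whole heart was measured, so fewer cells that transcribe Prnd and less Prnd RNA per cell cannot be told apart.

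The arrays lay on 2 slides, with replicates 1 and 2 of both groups on slide 1 and replicates 3 and 4 on slide 2. The Prnd difference was -5.99 on slide 1 and -4.95 on slide 2, and the bounds were 63.5-fold and 14-fold. Slide 2 had the higher background: its lowest signal well above background was 40.5 to 43 on the 4 arrays, against at most 11.9 on slide 1. Both slides gave the same direction. On slide 1 the fasted values lay above the floor, so its bound is the measured difference itself. The bound on slide 2 was set by a higher floor. With another background correction, normexp, which adds a constant before the log, the Prnd difference was -3.10. That fall is smaller than the bound of 4.9 on the log2 scale. The bound therefore holds only for the background-subtracted values of the main comparison.

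**Figure D1:**
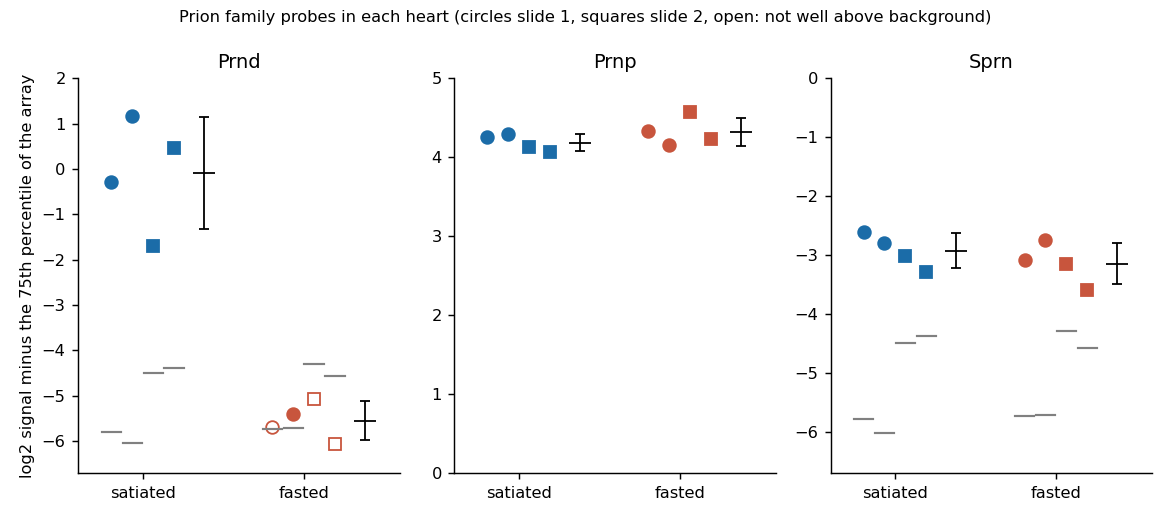
Scaled log2 values of the Prnd, Prnp and Sprn probes in each heart, by group; black marks give mean and SD, and short grey lines for Prnd and Sprn the dimmest value still called well above background on each array. The 4 fasted hearts lie between -6.07 and -5.06 for Prnd, below all satiated hearts, whereas the groups overlap for Prnp and Sprn.

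Prnp differed little between the groups. Its probe was printed as 10 spots per array, all well above background and none saturated. The mean processed signal was 11140, 14300, 16610 and 15030 in satiated replicates 1 to 4, and 12760, 10660, 19280 and 18050 in fasted replicates 1 to 4. On the scaled log2 scale the satiated hearts stood at 4.26, 4.29, 4.13 and 4.07, a mean of 4.19 ± 0.10 (SD, n = 4). The fasted hearts stood at 4.33, 4.16, 4.57 and 4.23, a mean of 4.33 ± 0.18 (SD, n = 4). Fasted replicate 3 was the highest heart, fasted replicate 2 lay among the satiated hearts, and the groups overlapped.

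The Prnp difference was 0.14 ± 0.13 (SE), or 1.1-fold higher in the fasted hearts. Slide 1 gave -0.03 and slide 2 gave 0.30; without fasted replicate 3 the difference was 0.06. The SD between the 10 spots of an array was 0.021 to 0.063; it leaves out differences in labelling and hybridisation between arrays. Among all genes and probes tested, 85.4% had an SD among the satiated hearts at least as large as that of Prnp.

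**Figure D2:**
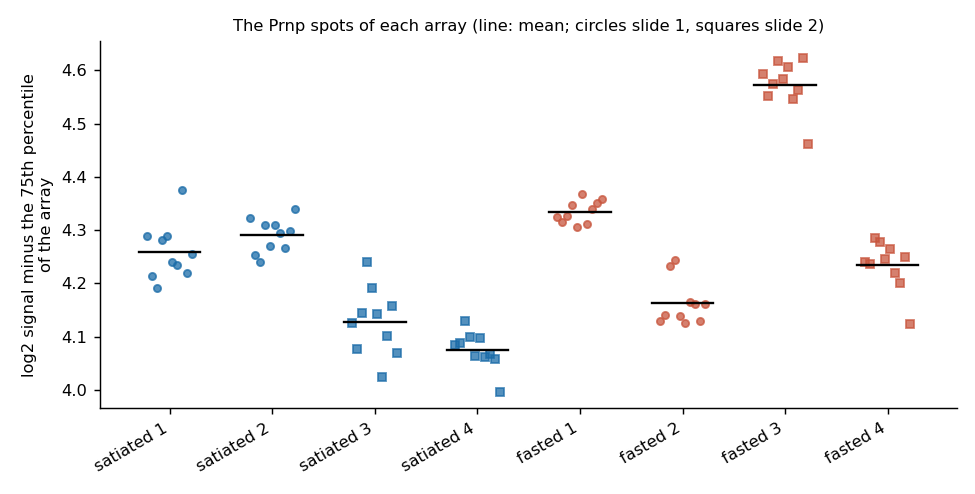
Scaled log2 values of the 10 Prnp spots on each array, with the array mean as a line. All spots of fasted replicate 3 lie at 4.46 or higher, above every spot of the other arrays, while the other fasted arrays overlap the satiated ones.

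In the fit over all 20202 genes and unnamed probes, 10.3% were called lower and 9.65% higher in fasted hearts at an adjusted p under 0.05 (limma, Benjamini-Hochberg), and the groups did not overlap for 27.5%. Prnd is among the lower and the not overlapping ones and Prnp among neither, but nothing is read from this, since the pair was selected on that contrast. The samples are taken as separate mice because the labels number them within each group; a p-value here reflects only how these 8 samples vary, which may in part be technical. The median difference over all genes was -0.01. With slide 2 alone (2 hearts against 2), the fit called 1 gene, so none of the calls below can be taken as shown on that slide by itself.

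Among satiated hearts Prnd was among the more variable genes. Its values spanned 2.89 on the log2 scale, or 7.39-fold, with replicates 2 and 4 high and replicates 1 and 3 low. An SD as large as its 1.23 was found for 1.35% of all genes and probes tested, whose median SD was 0.24. Each slide held 1 of the high and 1 of the low hearts. Prnp was steady in the same hearts, spanning 0.22. Over the 8 hearts, which share arrays and slides, Pearson's r between Prnp and Prnd was -0.37 and Spearman's rho -0.19. After the means of group and slide were removed, r was 0.37.

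Sprn, which encodes shadoo, the remaining member of the prion family, was dim in the heart. Its brighter probe stood at -2.60, -2.79, -3.01 and -3.29 in satiated replicates 1 to 4 and at -3.08, -2.75, -3.16 and -3.60 in fasted replicates 1 to 4. The groups overlapped, and the difference of -0.23 ± 0.22 was not called (limma, adjusted p = 0.514). A dimmer Sprn probe was well above background in 2 satiated hearts and 0 fasted hearts and did not pass the filter. Of the kept probes of the 3 family members, that of Prnd alone had groups that did not overlap.

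The prion proteins are thought to share an ancestor with the LIV-1 family of zinc transporters, and 2 of its 3 listed genes were measured. Slc39a6 was higher in fasted hearts by 0.43 ± 0.12 (adjusted p = 0.0369), with 0.17, 0.08, -0.07 and -0.05 in satiated replicates 1 to 4 and 0.49, 0.61, 0.32 and 0.42 in fasted replicates 1 to 4. That call was kept in 1 of 8 fits that each left out 1 heart, the one without fasted replicate 3, and lost with normexp (adjusted p = 0.0851). Slc39a10 differed by -0.27 ± 0.17 and was not called (adjusted p = 0.299). Slc39a5 was not well above background on enough arrays.

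None of the other measured genes around Prnd showed a difference of its size. Of the 5 nearest genes of any kind on each side of Prnp, 4 were measured and 6 had no matched probe. Apart from Prnd, the measured ones were Erv3, which derives from an endogenous retrovirus, at 0.19 ± 0.76 (adjusted p = 0.899), Rassf2, which encodes a Ras-associated protein, at -0.30 ± 0.32 (adjusted p = 0.567), and Slc23a2, a vitamin C transporter, at -0.37 ± 0.18 (adjusted p = 0.186). None of these 3 was called by limma, but Slc23a2 was with slide (adjusted p = 0.0137) or replicate number (adjusted p = 0.036) as a block. The gene table also holds Prn, a readthrough gene over both Prnp and Prnd, which these probes do not tell apart from either gene.

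A wider set, the 5 nearest protein-coding genes on each side of the pair, was added after the values were seen. Of its 10 genes 1 was higher, 1 was lower and 8 were not called, against 9.65% higher and 10.3% lower over all genes and probes. Pank2, the mitochondrial pantothenate kinase that starts coenzyme A synthesis, rose by 0.55 ± 0.11 on its brighter probe (adjusted p = 0.00969). Its other probe stood at -0.37 ± 0.15, in the opposite direction, and the mean of both gave 0.09 with no call. Rnf24, a RING finger protein, fell by 0.69 ± 0.18 (adjusted p = 0.0306), a call kept in 2 of 8 fits that left out 1 heart, those without satiated replicate 1 or fasted replicate 4, and lost with normexp (-0.46, adjusted p = 0.0601). Smox, spermine oxidase, stood at -0.37 ± 0.14 (adjusted p = 0.0975) and was called without fasted replicate 3, with normexp and under both blocks (adjusted p = 0.0382 and 0.0416). Adra1d, Tmem230, Pcna and Cds2 stood between -0.37 and 0.43 and were not called. Under the blocks Cds2 was called higher (adjusted p = 0.0394 by slide and 0.0384 by replicate number), as was Adra1d lower by replicate number (adjusted p = 0.0252).

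**Figure D3:**
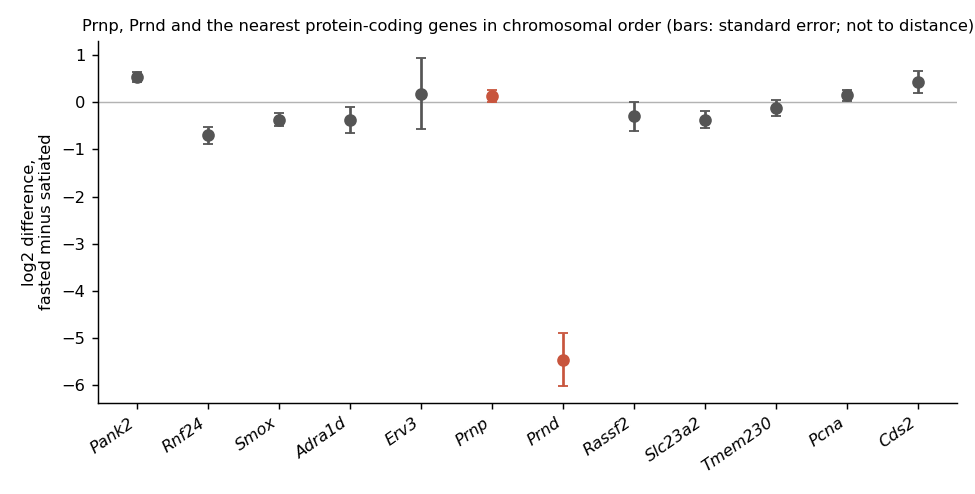
Difference, fasted minus satiated, in scaled log2 for Prnp, Prnd and the 5 nearest measured protein-coding genes on each side, in chromosomal order without scale of distance; bars are standard errors. Prnd lies at -5.47 and the neighbours between -0.69 and 0.55.

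The genes of the proteins that act on or with the prion protein were taken from lists of its partners and of its biosynthesis. Among binding partners, with a median of -0.30, 0 of 17 measured genes rose and 3 fell, against 9.65% and 10.3% of all genes and probes. With the replicate number as a block 6 fell, but that block raised the calls over all genes and probes from 4039 to 6456. The block counts of this and the following lists are to be read beside that general rise. Stip1, a co-chaperone that binds the prion protein at the cell surface, fell by 0.91 ± 0.15 (adjusted p = 0.005). Itga6, a laminin-binding integrin chain, fell by 0.95 ± 0.21 (adjusted p = 0.0166), and Vtn, which encodes the matrix protein vitronectin, fell by 0.61 ± 0.14 (adjusted p = 0.0177). The last pair of calls was lost without satiated replicate 4 (adjusted p = 0.0507 and 0.0514). The laminin receptor gene Rpsa stood at 0.03 ± 0.13, and Ncam1, a neural adhesion molecule, at -0.15 ± 0.18.

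Genes of proteases that shed or degrade the prion protein and of their inhibitor Cst3 had a median of 0.22. Of 12 measured, 4 rose and 1 fell, against 9.65% and 10.3% of all genes and probes. Ctsl, the lysosomal protease cathepsin L, rose by 1.37 ± 0.20 (adjusted p = 0.0034). Adam8, a membrane protease, rose by 1.36 ± 0.28 (adjusted p = 0.0124), and Mmp14, a membrane-bound matrix metalloprotease, rose by 1.25 ± 0.28 (adjusted p = 0.0178). Adam17, the sheddase of tumour necrosis factor, fell by 0.94 ± 0.24 (adjusted p = 0.029). This call was kept in 3 of 8 fits that left out 1 heart: it was lost without fasted replicates 1, 2 or 3 or satiated replicates 3 or 4. Adam10, the main sheddase of the prion protein, had no matched probe. The lysosomal proteases Ctsb and Ctsd stood at -0.25 ± 0.12 and 0.23 ± 0.15.

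The genes of the enzymes that build the GPI anchor, on which both prion protein and doppel depend, had a median of -0.25. Of 26 measured, 1 was higher and 5 were lower, against 9.65% and 10.3% of all genes and probes. With the replicate number as a block these counts were 3 and 9, while the calls over all genes and probes rose from 4039 to 6456. Pgap2, which remodels the lipid of the anchor, fell by 0.73 ± 0.12 (adjusted p = 0.00569). Pigo, which adds an ethanolamine phosphate, fell by 0.98 ± 0.20 (adjusted p = 0.0109). Pigh, a subunit of the enzyme of the first step, fell by 0.85 ± 0.22 (adjusted p = 0.0309), a call kept in 3 of 8 fits that left out 1 heart and lost without any 1 satiated heart or fasted replicate 4. With normexp Pigh stood at -0.34 (adjusted p = 0.0816). Dpm1, which makes the mannose donor, rose by 0.98 ± 0.13 on its brighter probe (adjusted p = 0.0021). A dimmer Dpm1 probe stood at -0.39 ± 0.16, and the mean of both was not called.

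Other GPI-anchored surface proteins served for comparison with doppel, with a median of -0.05. Of 35 measured genes 3 rose and 8 fell, against 9.65% and 10.3% of all genes and probes. With the replicate number as a block, 7 rose and 13 fell, while the calls over all genes and probes rose from 4039 to 6456. Rtn4r, the Nogo receptor, was well above background in 4 of 4 satiated and 0 of 4 fasted hearts. It passed the filter on dim probes through the satiated hearts alone, so its call is not read as support. With its fasted hearts raised to the floor of their arrays it was 6.26-fold lower, a log2 fall of 2.65. With normexp its difference was only -1.42, against -3.89 without it. Mdga1, a neural adhesion molecule, fell by 1.91 ± 0.11 (adjusted p = 0.000133), and Bst2, the antiviral protein tetherin, fell by 1.03 ± 0.11 (adjusted p = 0.00121). Car4, a carbonic anhydrase on the surface of capillaries and muscle, rose by 1.74 ± 0.15 (adjusted p = 0.000551).

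Copper handling genes went both ways, with a median of -0.15. Of 19 measured, 4 were higher and 4 lower, against 9.65% and 10.3% of all genes and probes. The metallothioneins, which bind zinc and copper, rose most: Mt2 by 2.96 ± 0.31 (adjusted p = 0.00103) and Mt1 by 2.27 ± 0.24 (adjusted p = 0.00108). Cp, the copper-carrying ferroxidase ceruloplasmin, rose by 1.13 ± 0.17 (adjusted p = 0.00391), and Steap3, a metalloreductase, fell by 1.04 ± 0.18 (adjusted p = 0.0067). The Steap3 probe was well above background in 2 of 4 fasted hearts, and with normexp its difference was -0.25 and not called (adjusted p = 0.123). The copper transporter genes Slc31a1 and Atp7a stood at -0.15 ± 0.15 and 0.08 ± 0.12 and were not called.

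None of the 6 factors reported at the Prnp promoter was called (limma), although 3 had an unadjusted p under 0.05. Trp53, which encodes p53, stood at 0.39 ± 0.12 on its brighter probe (adjusted p = 0.0561) and at -0.48 ± 0.26 on the other. Sp1, a factor that binds GC boxes, stood at 0.32 ± 0.10 (adjusted p = 0.0638), and Mtf1, the metal-responsive factor, at -0.53 ± 0.23 (adjusted p = 0.14). Over 20 alternative settings, 0 to 3 of the 6 were called higher; with the replicate number as a block the count was 2.

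Both proteins are N-glycosylated on entering the endoplasmic reticulum. Of 11 oligosaccharyltransferase genes, whose product attaches these glycans, 0 rose and 3 fell. The shares over all genes and probes were 9.65% and 10.3%, and the median of the 11 was -0.26. Ostc fell by 0.68 ± 0.16 (adjusted p = 0.0191), Rpn1 by 0.59 ± 0.15 (adjusted p = 0.0269) and Ddost by 0.40 ± 0.12 (adjusted p = 0.0471). Ddost was called in 0 of 8 fits that left out 1 heart, Rpn1 in 4 and Ostc in 6, all but those without fasted replicate 1 or satiated replicate 4. With normexp Ddost was not called (adjusted p = 0.051). The dimmest Rpn1 probe stood at 0.22 ± 0.17, and the mean of the Rpn1 probes was not called. Of 20 genes of the translocon and signal peptidase, 2 rose and 3 fell, beside the same shares over all genes, with a median of -0.04. With the replicate number as a block, 4 rose and 3 fell. Sec61b, a translocon subunit, fell by 0.67 ± 0.12 (adjusted p = 0.00747), and Ssr2, a translocon-associated protein, fell by 0.58 ± 0.11 (adjusted p = 0.00945). Srp54a, of the signal recognition particle, rose by 0.70 ± 0.16 (adjusted p = 0.0202), a call lost without satiated replicate 2 or fasted replicate 1. Sec62 rose by 0.45 ± 0.13 on its brighter probe (adjusted p = 0.0408), while its dimmer probe stood at -0.89 ± 0.23; that call was kept in 1 of 8 fits that left out 1 heart.

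**Figure D4:**
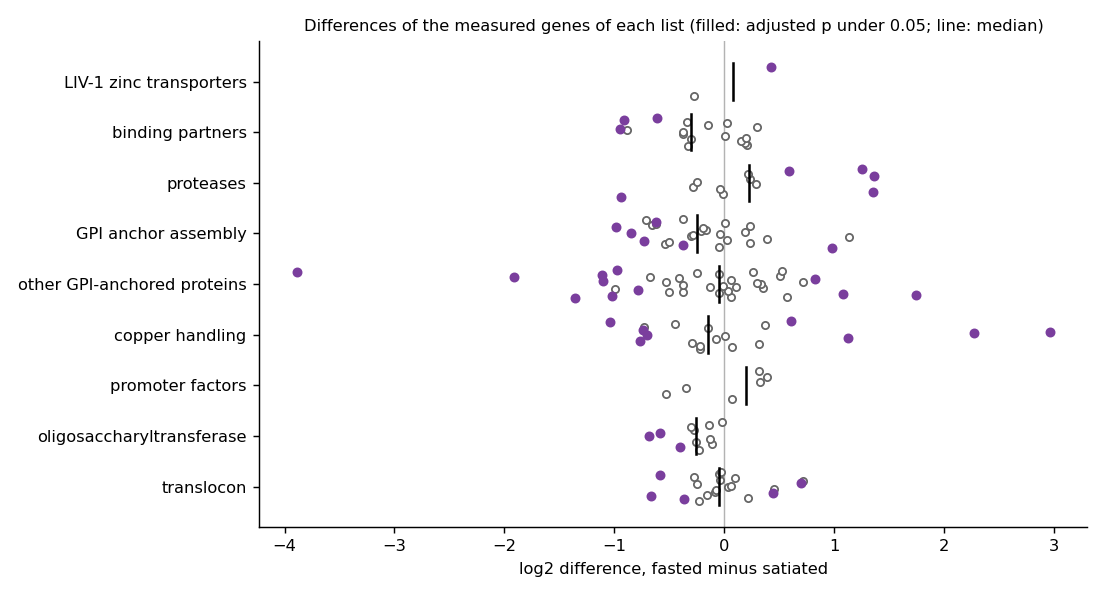
Differences, fasted minus satiated, in scaled log2 for each measured gene of 9 lists; filled points have an adjusted p under 0.05 and the line is the median. Medians lie between -0.30 and 0.22, and the point at -3.89 is Rtn4r, which was not well above background in any fasted heart.

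The genes most like Prnd over the 8 hearts, by Pearson's r of scaled log2 values, were Scarf1 (0.993), Myh9 (0.992), Tspan6 (0.990) and Pyurf (0.988). Scarf1 encodes a scavenger receptor of endothelial cells, Myh9 the heavy chain of non-muscle myosin, Tspan6 a tetraspanin and Pyurf a mitochondrial protein. Their differences, between -0.97 and -0.51, were far smaller than that of Prnd. The most opposite genes were Atf6 (-0.996), a sensor of unfolded proteins in the endoplasmic reticulum, Osmr (-0.992), the oncostatin M receptor, Dnajc7 (-0.989), a co-chaperone, and Ptprf (-0.989), a receptor phosphatase. Atf6 rose by 0.76 ± 0.13, from 2.09, 1.85, 2.35 and 1.99 in satiated replicates 1 to 4 to 2.89, 2.83, 2.76 and 2.85 in fasted replicates 1 to 4. It was lowest in the satiated heart with most Prnd, replicate 2, and highest in the one with least, replicate 3. These are the extremes among all genes over 8 hearts that share the group difference, and the values are a description. A gene picked for such an r with Prnd also separates the groups, so its difference is no separate result.

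With the means of group and slide removed, the genes most like Prnd were Mki67 (r = 0.992) and Kif22 (0.990), both genes of dividing cells, and Plbd1 (0.989), a phospholipase B-like protein. Mki67 stood at -0.52, 0.53, -1.75 and 0.03 in satiated replicates 1 to 4, the same order as Prnd. In the fasted hearts it stood at -1.25, -1.29, -0.78 and -1.67, within the satiated range. Neither Mki67, at -0.82 ± 0.45 (adjusted p = 0.248), nor Kif22, at -0.63 ± 0.24 (adjusted p = 0.101), was called with all hearts, and both were called without satiated replicate 3. Plbd1 stood at 0.05 ± 0.21. Prnd was well above background in only 1 of 4 fasted hearts, and its SD was 0.43 there against 1.23 in the satiated hearts. These r, here and below, therefore rest largely on the satiated hearts, 2 per slide.

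A list of proliferation genes was drawn up after this was seen, so its values support nothing on their own. Of 31 genes 23 were measured, and 8 of them (34.8%) ranked the satiated hearts as Prnd did, 2 above 4 above 1 above 3, against 4.27% of all genes and probes. Mki67 and Kif22, whose likeness prompted the list, are among the 8; without them it was 6 of 21 (28.6%), with a median r of 0.74. With them, the median r with Prnd after removal of group and slide means was 0.76, against 0.02 over all genes, with a range of -0.18 to 0.99. Ccnb2, cyclin B2, stood at -1.50, -0.55, -2.65 and -0.80 in satiated replicates 1 to 4 and at -2.67, -2.98, -2.63 and -3.03 in fasted replicates 1 to 4. Among replication genes this r was 0.72 for Mcm7, 0.63 for Mcm5 and 0.46 for Mcm2, which also shared the order. It was 0.35 for Pcna, 0.22 for Mcm3 and for Mcm6, and -0.09 for Mcm4. Between the groups, 19 of 23 differences were below 0, with a median of -0.63 and a range of -2.86 to 0.82. The groups did not overlap for 8 of the 23 genes, against 27.5% of all genes and probes tested. Of the 8, 7 were lower, among them Cenpf (-2.86 ± 0.10) and Mcm5 (-1.40 ± 0.16), and 1 was higher, Mcm7 (0.82 ± 0.15).

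A list of 18 genes of sprouting endothelium, also written after the values were seen, ranked the satiated hearts like Prnd in 4 cases (22.2%): Apln, Aplnr, Esm1 and Plvap. The general endothelial and fibroblast markers did so in 2 of 10 cases each (20%). With group and slide means removed, the median r with Prnd was 0.43 for the sprouting list (range -0.77 to 0.93), 0.52 for endothelial markers and 0.59 for smooth muscle and pericyte markers. Of the 4 sprouting genes with the order of Prnd, Apln had an r of 0.74 and Aplnr of 0.78, but Esm1 of 0.18 and Plvap of 0.23. Apln, the peptide apelin made by the tip cells of growing vessels, stood at 1.07, 1.59, 0.60 and 1.23 in satiated replicates 1 to 4 and at -1.56, -1.34, -2.08 and -2.00 in fasted replicates 1 to 4. Its receptor Aplnr stood at 0.09, 0.81, -0.17 and 0.52, and at -2.95, -2.45, -3.06 and -3.21. The groups did not overlap for either gene, and the differences were -2.87 ± 0.25 for Apln and -3.23 ± 0.25 for Aplnr. Esm1, a secreted proteoglycan of tip cells, differed by -2.16 ± 0.36. The next largest fall of the list was that of Nrp1, at -0.84 ± 0.33. The groups did not overlap for 4 of the 18 genes, all lower, against 27.5% of all genes and probes tested. Over the list, 14 of 18 differences were below 0, with a median of -0.44 and a range of -3.23 to 0.70. Vegfa, the vascular growth factor, stood at -0.36 ± 0.21, and Cxcr4, a chemokine receptor, was at the upper end.

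**Figure D5:**
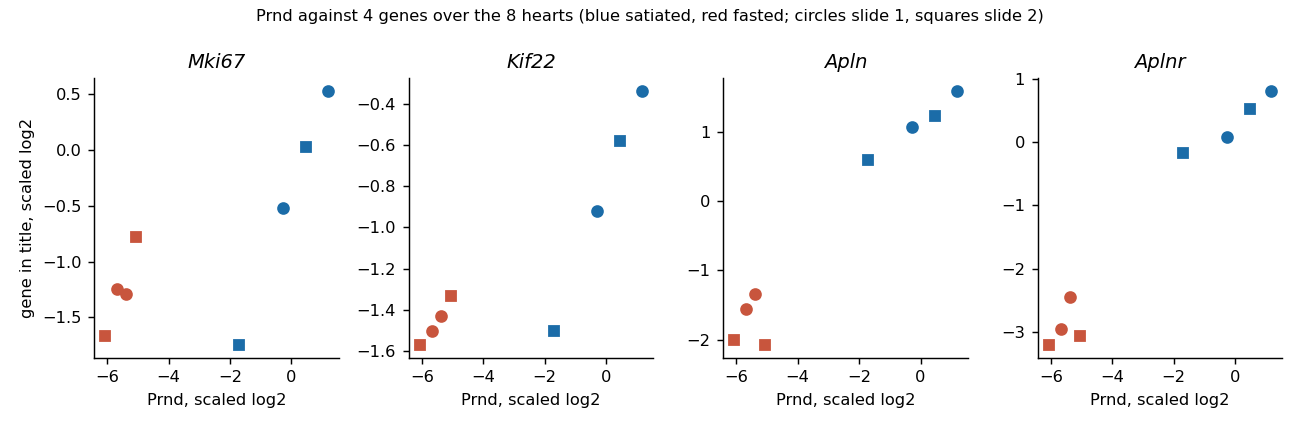
Scaled log2 values of Mki67, Kif22, Apln and Aplnr against Prnd in the 8 hearts, blue for satiated and red for fasted, circles for slide 1 and squares for slide 2. All 4 genes rise with Prnd among the satiated hearts, and Apln and Aplnr also separate the groups, as Prnd does.

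The genes most like Prnp were Psmd8 (r = 0.982), a proteasome subunit, Zfp746 (0.971), a zinc finger repressor, Iqck (0.960) and Tex45 (0.945). The most opposite were Slc7a10 (-0.981), an amino acid transporter, Abcd2 (-0.953), a peroxisomal fatty acid transporter, Polr3g (-0.947), a subunit of RNA polymerase III, and Myo1f (-0.946), a myosin of leukocytes. These 8 genes were not called, and Iqck and Abcd2 were well above background in only 2 of 4 satiated and 2 of 4 fasted hearts. With group and slide means removed the closest were Appl1 (0.992, on the brighter of its probes, which disagree in direction), an adaptor of the adiponectin receptor, the neighbour Erv3 (0.991) and Myl12b (0.991), a myosin light chain. Psmd8, Zfp746, Iqck, Tex45, Appl1, Erv3 and Myl12b each had their highest value in fasted replicate 3, the heart with most Prnp, and Slc7a10, Abcd2, Polr3g and Myo1f their lowest.

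Markers of the cell types of the heart were set beside these results. Their counts are to be read beside the 9.65% higher and 10.3% lower over all genes and probes. The 10 cardiomyocyte markers were well above background on all 8 arrays, and 1 of them, Actc1, was lower. Endothelial markers gave 0 calls of 10 by limma and a mean scaled log2 of 2.52 to 2.71 in satiated and 2.57 to 2.94 in fasted hearts; 1 of them had an unadjusted p under 0.05. Fibroblast markers gave 1 higher and 7 lower of 10, with a mean of 3.13 to 3.42 in satiated and 2.22 to 2.74 in fasted hearts, and these ranges did not overlap. The summed level of the fibroblast list was 7.96 to 8.14 and 7.88 to 8.15 on the log2 scale. Smooth muscle and pericyte markers gave 0 higher and 2 lower of 9, neuron and Schwann cell markers 1 higher and 2 lower of 11 with Dbh, Snap25 and Th not measured. Of these calls, Acta2 (lower) and Prph (higher) were each kept in 2 of 8 fits that left out 1 heart. Prph was well above background in 1 satiated and 3 fasted hearts. The summed level of the neuron and Schwann cell list was 2.25 to 2.49 in satiated and 2.09 to 2.22 in fasted hearts on the log2 scale, without overlap, while its mean scaled log2 overlapped (-2.03 to -1.89 and -1.97 to -1.81). Leukocyte markers gave 2 higher and 0 lower of 9, of which S100a8 was kept in 3 of 8 fits that left out 1 heart. Mesothelial markers gave 1 higher of 6, and adipocyte (7 measured) and skeletal muscle (8 measured) markers 0 calls by limma, with 2 and 0 at an unadjusted p under 0.05. Skeletal muscle markers had a mean of 3.91 in satiated replicate 1 and at most 0.80 in the other hearts, and adipocyte markers ranged from 1.87 to 4.05 among satiated hearts. The part of these cell types in the values of Prnd and Prnp was not tested.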

How the data were processed

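Cardiac RNA of 8 mice was measured on 1-colour Agilent arrays. The deposited scanner tables hold background-subtracted spot intensities, not normalized between arrays, extracted with Agilent Feature Extraction 10.5.1.1 (slide 1) and 10.7.3.1 (slide 2) per the file headers; the submitters' processing notes name version 9.1. The deposited matrix of the series holds linear ratios of the authors, with column medians from 0.86 to 1.02; their divisor and centring are unknown, and it served as an alternative source of values. Slide, scan and software version cannot be told apart, but each slide held 2 hearts per group.

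The log2 processed signal minus each array's 75th percentile was taken, 1639 control spots and outlier-marked spots were left out, replicate spots were averaged, and a probe was kept if the software called it well above background on 4 or more of the 8 arrays. Accessions were matched to the GRCm38.p6 gene table of RefSeq for names only (26690 probes of 41174, 0 with several symbols); the brightest kept probe represents a symbol. limma 3.58.1 (R 4.3.3, data.table, version 1.17.8) compared the groups, two-sided, with Benjamini-Hochberg adjustment over all 20202 genes and unnamed probes. Promoters were searched with Python 3.11.15 and pandas 2.3.3, and figures drawn with matplotlib 3.10.9. The fit was checked on simulated data. The number of arrays limits the precision.

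Named are both genes, the prion family, the LIV-1 list and the neighbours. Each other list except cell markers gives up to 4 called genes with the smallest p, or the smallest where none was called. Also named are the 4 highest, 4 lowest and 3 highest residual correlations per gene. Further genes were picked after their values were seen, and cell markers are given mainly as counts. The genes and lists were chosen with earlier results of these data known. Deviations of same-numbered hearts from their group means correlated at 0.44, 0.47, 0.33 and 0.49 for replicates 1 to 4. Same-numbered hearts also share a slide, and with slide means removed r was -0.11 to 0.05. The correlation thus goes with the slide, and the numbers were not taken to pair the hearts. The replicate number as a block served only as an alternative setting. The main comparison has no term for number or slide. The count with the replicate number as a block was 6456 calls against 4039 without. Alternatives were another background correction, scaling, filter, source of values, probe rule, slide or replicate block, array weights, each slide alone and each heart left out.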

Additional observations from a re-analysis of the deposited data

Results flagged for a closer look

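In 72 groups of 4 hearts checked for a value far from the others, 2 were found; chance alone flags about 1 in 20 groups. Rassf2 stood at -2.39 in fasted replicate 3, a gap of 0.894 of the group's range, in a heart where Prnp was highest. Pank2 stood at -0.09 in satiated replicate 3, a gap of 0.869 of the range.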

How the results depend on the processing

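The Prnd difference lay between -6.01 and -3.10 under 17 alternatives. Prnd was chosen by this contrast, so its kept direction is a description and no support. The value -3.10 came from normexp on median signals, and leaving out each heart gave -6.01 to -5.05. A filter asking for all 8 arrays well above background drops Prnd, and 0 genes of the prion family were then called lower. Prnp was -0.03 on slide 1 alone and 0.30 on slide 2 alone, and 0.06 to 0.19 with each heart left out. The number of genes and probes called by limma, 4039, was 2199 with no filter on dim probes, 7153 with slide as a block, 6456 with the replicate block, 6164 with array weights, 1900 on slide 1 alone and 1 on slide 2 alone. Leaving out each heart gave 2484 to 3696 calls, with 2493 without satiated replicate 2 and 2484 without satiated replicate 4. The replicate block left the estimates of Prnd and Prnp at -5.47 and 0.14, since the groups are balanced over the numbers. GPI anchor assembly genes called lower ranged from 0 to 10 and other GPI-anchored genes called lower from 0 to 13 over 20 alternatives. Fewer hearts were fitted on single slides; the causes of the other changes were not tested. Naming probes by a gene name column was not run. Higher background on slide 2 limits how far a fall of Prnd can be measured there.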
